A study of Homo sapiens with 6 samples.

Results

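The 9 genes that mark out and license origins of DNA replication were followed through the transcriptome of a thyroid cancer cell line: the origin recognition complex subunits ORC1, ORC2, ORC3, ORC4, ORC5 and ORC6, the loading factors CDC6 and CDT1, and GMNN, which encodes geminin. The members were the rows of the deposited expression table that carry these 9 gene names, out of 58735 genes in all. Across the whole set, 5 of the 9 rose past the thresholds in RRM2-OE-TPC-1 cells, and 0 fell past them. The thresholds were an adjusted p of 0.05 or less and a log2 fold change of at least 1 in either direction. At these thresholds 4.48% of all 13621 tested genes were higher and 6.97% were lower. The 5 members rose by 2.34-fold to 3.81-fold as the ratio of mean FPKM (fragments scaled to gene length and library depth). The 6 ORC subunits did not move together: ORC1, ORC3 and ORC6 rose, whereas ORC2, ORC4 and ORC5 each differed by less than 1 on the log2 scale.

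The TPC-1 line comes from a human papillary carcinoma of the thyroid. Wild strain TPC-1 cells (WT, 3 libraries of RNA) were compared with RRM2-OE-TPC-1 cells (3 libraries). The latter are TPC-1 cells infected with a lentivirus (vector LV18) that carries full-length RRM2 behind a CMV promoter and selected with puromycin. RRM2 is the small subunit of ribonucleotide reductase, the enzyme that makes deoxyribonucleotides for DNA synthesis. The control cells carried no vector, so RRM2 itself, infection and selection cannot be told apart in this comparison. The study does not state whether the overexpressing strain is a clone. The series design calls the replicates biological triplicates. The genotype labels of RRM2-OE-TPC-1 replicates 2 and 3 name RRM3 and RRM4, and those libraries were placed by their titles, which name RRM2. RRM2 was measured at 8.52 to 9.17 FPKM in the 3 TPC-1 libraries and at 47.2 to 50.4 FPKM in the 3 RRM2-OE-TPC-1 libraries, a 5.43-fold ratio of means, and no library went against its title.

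Licensing takes place before S phase. ORC binds at origins, CDC6 joins it, and together with CDT1 they load the MCM2-7 helicase as an inactive double hexamer. Geminin binds CDT1 and stops it from loading more helicase once S phase has begun, so that each origin fires once. Much of this control acts on proteins, through degradation of ORC1, CDT1 and CDC6 at set points of the cycle, and the libraries measure RNA only.

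Libraries held 14317091 to 17084067 reads on genes, and the members had 121 to 1299 reads per library, so counting error alone gave a coefficient of variation of 2.90% to 8.65% per group. Of the markers of thyroid follicular cells, 3 of 9 (PAX8, FOXE1 and HHEX) were above 1 FPKM and NKX2-1 was at 0 in all libraries. The summed thyroid markers stood at 74.0 to 77.9 FPKM in TPC-1 and at 64.3 to 67.7 FPKM in RRM2-OE-TPC-1. Most of that sum was PAX8, at 67.3 to 70.8 FPKM in TPC-1 and 56.3 to 59.85 FPKM in RRM2-OE-TPC-1. HHEX went the other way, from 2.34 to 2.54 FPKM in TPC-1 to 4.47 to 4.81 FPKM in RRM2-OE-TPC-1. Of the epithelial markers, 3 of 6 were above 1 FPKM (KRT7, KRT8 and KRT18), with sums of 42.9 to 47.1 FPKM in TPC-1 and 88.4 to 90.8 FPKM in RRM2-OE-TPC-1. Nearly all of that sum was KRT18, at 39.4 to 43.0 FPKM in TPC-1 and 83.7 to 85.9 FPKM in RRM2-OE-TPC-1. KRT7 was lower, at 1.05 to 1.30 FPKM in TPC-1 and 0.98 to 1.03 FPKM in RRM2-OE-TPC-1, so the sums do not describe each gene. Endothelial markers had 0 of 4 genes above 1 FPKM, with KDR at 0. The endothelial sum was 0.873 to 1.05 FPKM in TPC-1, where PECAM1 held 0.857 to 1.04 FPKM of it, and 0.0667 to 0.115 FPKM in RRM2-OE-TPC-1. Among fibroblast markers 1 of 5 (PDGFRB) was above 1 FPKM, COL1A2 and DCN were at 0, and the sums were 2.78 to 3.16 FPKM and 2.78 to 2.94 FPKM. The part of these marker shifts in the results below was not tested.

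Promoter letters are shown for the members that rose and for CDT1, because the members differ in what their start regions hold. RefSeq windows on GRCh38.p14, from 250 bases before to 50 bases after each annotated start, were found for all 9 members (11 windows, since ORC4 and GMNN have more than 1) and searched on both strands. The letters searched were TTTCCCGC, TTTCGCGC, TTTGCCGC and TTTGGCGC for E2F, CCAAT for the CCAAT box, and TTTGAA and TTTAAA for the CHR element. E2F factors, the CCAAT-binding NF-Y and the complexes at CHR elements are known regulators of cell cycle genes. E2F letters stood in the windows of 4 members (CDC6, CDT1, GMNN and ORC3) and in 3.31% of all 35116 windows of the same length. CCAAT stood in the windows of 6 members (CDC6, GMNN, ORC1, ORC2, ORC3 and ORC6) and in 34.6% of all windows. CHR letters stood in 0 of the 9 members and in 24.0% of all windows. No motif overlapped another in the stretches printed here. Windows of ORC4 and ORC5 held none of these letters.

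The 30-base sites around the E2F letters are printed 5′ to 3′ on the strand of the gene, with motif letters in capitals.
CDC6 (chr17:40287875-40287904, + strand): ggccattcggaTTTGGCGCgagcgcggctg
CDT1 (chr16:88803743-88803772, + strand): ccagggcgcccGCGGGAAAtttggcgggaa
ORC3 (chr6:87590112-87590141, + strand): cgcgagggcgcGCGGGAAAtcccgagtgca
The E2F letters began 7 bases after the RefSeq start of CDC6, 35 bases before that of CDT1 and 12 bases before that of ORC3. In CDT1 and ORC3 they lie on the strand opposite to the gene. In the gene models used for FPKM, CDC6, CDT1 and ORC3 begin further upstream than the RefSeq starts, so each of these sites lies inside the annotated gene. The longer stretches below are the parts of the ORC1 and ORC6 windows and of the second GMNN window that no annotated exon covers. The printed GMNN stretch lies downstream of the annotated gene start. The first GMNN window has another uncovered stretch of 244 bases, upstream of that start, which holds none of the letters and is not printed.
ORC1 (chr1:52404460-52404563, - strand): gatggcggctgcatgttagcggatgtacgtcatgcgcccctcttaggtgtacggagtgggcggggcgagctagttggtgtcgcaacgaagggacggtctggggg
ORC6 (chr16:46689519-46689642, + strand): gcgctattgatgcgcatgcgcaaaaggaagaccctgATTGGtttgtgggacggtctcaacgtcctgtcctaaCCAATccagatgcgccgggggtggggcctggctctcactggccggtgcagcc
GMNN (chr6:24775245-24775412, + strand): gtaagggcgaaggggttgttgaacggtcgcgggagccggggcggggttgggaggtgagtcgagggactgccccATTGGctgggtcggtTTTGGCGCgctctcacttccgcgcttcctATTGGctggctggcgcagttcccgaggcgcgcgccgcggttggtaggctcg
The ORC1 stretch is the whole gap between ORC1 and the gene on the other strand, PRPF38A, and holds none of the letters. The CCAAT of the ORC1 window lies closer to its start, inside the annotated first exon. The ORC6 stretch holds CCAAT on each strand, and the GMNN stretch holds CCAAT letters on the opposite strand at both sides of E2F letters that begin 80 bases before the RefSeq start site of its second window.

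A gene was called where the adjusted p of limma on log2(FPKM + 0.1), with Benjamini-Hochberg adjustment over 13621 tested genes, was 0.05 or less and the log2 fold change was at least 1 in either direction. All 9 members passed the filter on low values. Of the members 5 were called higher, where 4.48% of all tested genes were, and 0 were called lower, where 6.97% of all tested genes were. By adjusted p alone 7 members were higher (34.9% of tested genes) and 1 was lower (32.7% of tested genes). FPKM of the 2 groups did not overlap for 8 members, a pattern that 72.2% of tested genes shared. The median log2 fold change was 1.21 over the 9 members and 0.01 over all genes tested. ORC1, ORC3, ORC6 and CDC6 are also in the list of changed cell cycle genes that the study drew from these libraries, so the count is not independent evidence of direction. In bulk RNA, a larger share of cells in the phase that transcribes a gene and more of its RNA per cell cannot be told apart. From flow cytometry the study reports a larger share of S phase cells in RRM2-OE-TPC-1 than in TPC-1. The part of that share in the members' values was not tested.

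**Figure D1:**
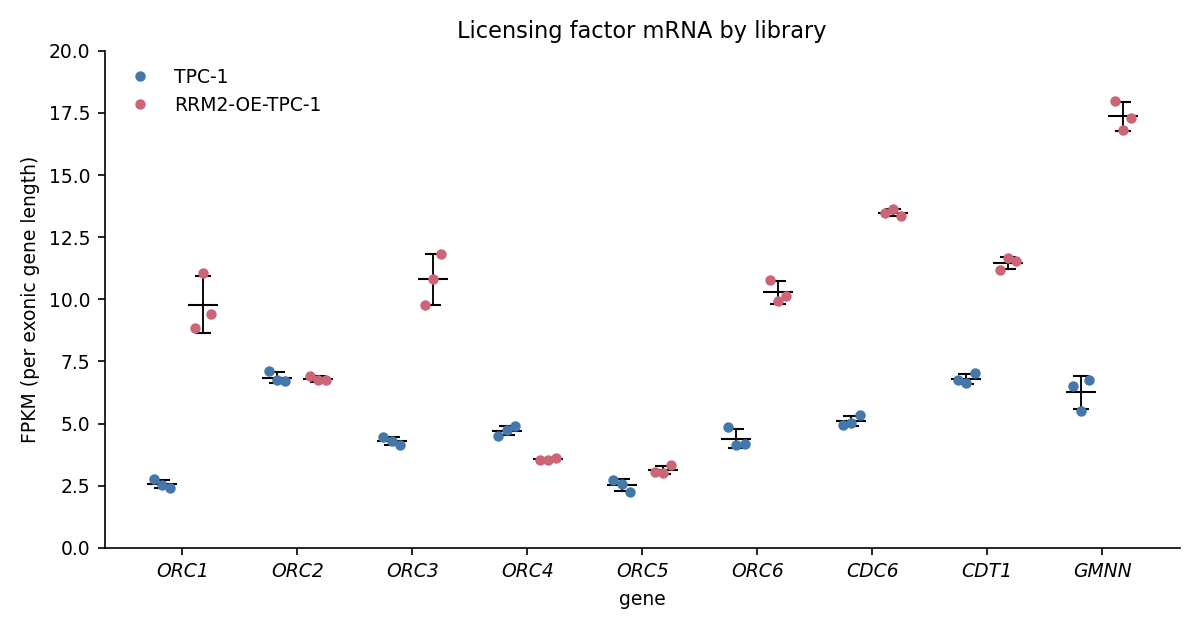
FPKM of each gene (vertical axis, per exonic gene length) in the 3 TPC-1 libraries (blue points) and the 3 RRM2-OE-TPC-1 libraries (red points). Horizontal bars are means and whiskers SD. The groups are apart for 8 genes, as they are for 72.2% of all tested genes, and overlap for ORC2. GMNN reaches the highest level at 16.8 to 18.0 FPKM.

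ORC1 (ENSG00000085840, chr1:52372829-52404459, minus strand, GRCh38) is the subunit that is lost and rebuilt in each cycle of human cells and that brings ATPase activity to the complex. It was at 2.75, 2.54 and 2.41 FPKM in TPC-1 replicates 1, 2 and 3 and at 8.85, 11.1 and 9.42 FPKM in the RRM2-OE-TPC-1 replicates. Each RRM2-OE-TPC-1 library was above each TPC-1 library, and replicate 2 was the highest. The mean rose from 2.57 ± 0.175 to 9.78 ± 1.14 FPKM (SD, n = 3 each), the largest change among the members, with a log2 fold change of 1.89 (SE 0.0926, 95% interval 1.67 to 2.10, limma adjusted p = 1.08e-06). Only 0.763% of tested genes had a larger log2 fold change. The coefficient of variation among RRM2-OE-TPC-1 libraries was 11.7% where counting error alone gives 4.51%, so the level was less even there than that of any other member.

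ORC2 (ENSG00000115942, chr2:200908973-200963680, minus strand), a core subunit that stays bound to chromatin, was at 7.10, 6.74 and 6.71 FPKM in TPC-1 and at 6.92, 6.73 and 6.73 FPKM in RRM2-OE-TPC-1. The libraries of the groups interleave. The log2 fold change was -0.01 (SE 0.0487, limma adjusted p = 0.864), and the 95% interval of -0.12 to 0.10 sets the size of change that these libraries leave possible. An RNA on the opposite strand, AC005037.1, shares 256 bases of exon with it but averaged 0.0108 FPKM.

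ORC3 (ENSG00000135336, chr6:87590067-87667453, plus strand) pairs with ORC2 in the core of the complex. Its levels were 4.47, 4.30 and 4.15 FPKM in TPC-1 and 9.77, 10.8 and 11.8 FPKM in RRM2-OE-TPC-1. All RRM2-OE-TPC-1 values were above all TPC-1 values. ORC3 rose 2.51-fold, with a log2 fold change of 1.30 (SE 0.0745, 95% interval 1.13 to 1.48, limma adjusted p = 2.22e-06). Its levels also spread more in RRM2-OE-TPC-1, with a coefficient of variation of 9.51% against 3.98% from counting.

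ORC4 (ENSG00000115947, chr2:147930397-148021604, minus strand), an ATP-binding core subunit, was at 4.52, 4.74 and 4.90 FPKM in TPC-1 and at 3.54, 3.54 and 3.63 FPKM in RRM2-OE-TPC-1. It was the only member whose RRM2-OE-TPC-1 libraries all lay below the TPC-1 libraries. The log2 fold change was -0.39 (SE 0.0610, 95% interval -0.53 to -0.25, limma adjusted p = 6.08e-04), which passed the adjusted p and not the fold threshold. Exons of ORC4 share 430 bases with ACVR2A and 157 bases with MBD5, both on the opposite strand and at 1.61 and 1.22 FPKM on average. Their log2 fold changes were -0.37 (adjusted p = 0.0347) and -0.88 (adjusted p = 1.95e-04). Whether counting used strand is not stated, so the ORC4 value is uncertain.

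ORC5 (ENSG00000164815, chr7:104126341-104208047, minus strand), the other ATP-binding core subunit, had the lowest mean FPKM of the members in both groups. In TPC-1 its range overlapped that of ORC1. Scaled to the length of the principal transcript, ORC5 was the lowest member in neither group. Its levels were 2.74, 2.57 and 2.26 FPKM in TPC-1 and 3.07, 2.99 and 3.32 FPKM in RRM2-OE-TPC-1. The groups did not overlap but lay close. The log2 fold change of 0.30 (SE 0.0925, 95% interval 0.09 to 0.52, limma adjusted p = 0.0191) passed the adjusted p only. It did not pass that threshold without TPC-1 replicate 3 (limma adjusted p = 0.0594) or without RRM2-OE-TPC-1 replicate 3 (0.0643), so the count of members higher by adjusted p alone rests on these libraries for ORC5.

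ORC6 (ENSG00000091651, chr16:46689643-46698394, plus strand), the smallest subunit and the one least firmly held in the human complex, was at 4.85, 4.15 and 4.18 FPKM in TPC-1 and at 10.8, 9.92 and 10.1 FPKM in RRM2-OE-TPC-1. Replicate 1 was the highest in each group, and the groups were well apart. ORC6 rose 2.34-fold, with a log2 fold change of 1.21 (SE 0.0725, 95% interval 1.04 to 1.38, limma adjusted p = 2.81e-06). It was the member nearest to the fold threshold among those called, and a test of whether the change exceeds 1 gave an adjusted p of 0.184.

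CDC6 (ENSG00000094804, chr17:40287633-40304657, plus strand), the ATPase that joins ORC to load the helicase, was at 4.96, 5.03 and 5.35 FPKM in TPC-1 and at 13.5, 13.7 and 13.4 FPKM in RRM2-OE-TPC-1. Both groups were tight. CDC6 rose 2.64-fold, with a log2 fold change of 1.38 (SE 0.0475, 95% interval 1.27 to 1.49, limma adjusted p = 1.99e-07), the smallest adjusted p of the members.

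CDT1 (ENSG00000167513, chr16:88803213-88809258, plus strand), which brings the helicase to ORC and CDC6, was at 6.77, 6.63 and 7.02 FPKM in TPC-1 and at 11.2, 11.7 and 11.5 FPKM in RRM2-OE-TPC-1. The groups did not overlap. CDT1 was 1.68-fold higher, with a log2 fold change of 0.74 (SE 0.0451, limma adjusted p = 2.98e-06). Its 95% interval of 0.64 to 0.85 lies below the fold threshold, so CDT1 was not called.

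GMNN (ENSG00000112312, chr6:24774931-24786099, plus strand), the inhibitor of CDT1, was at 6.51, 5.50 and 6.77 FPKM in TPC-1 and at 18.0, 16.8 and 17.3 FPKM in RRM2-OE-TPC-1. TPC-1 replicate 2 was the lowest library, and the groups were far apart. GMNN rose 2.77-fold, with a log2 fold change of 1.46 (SE 0.0770, 95% interval 1.29 to 1.64, limma adjusted p = 1.51e-06).

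**Figure D2:**
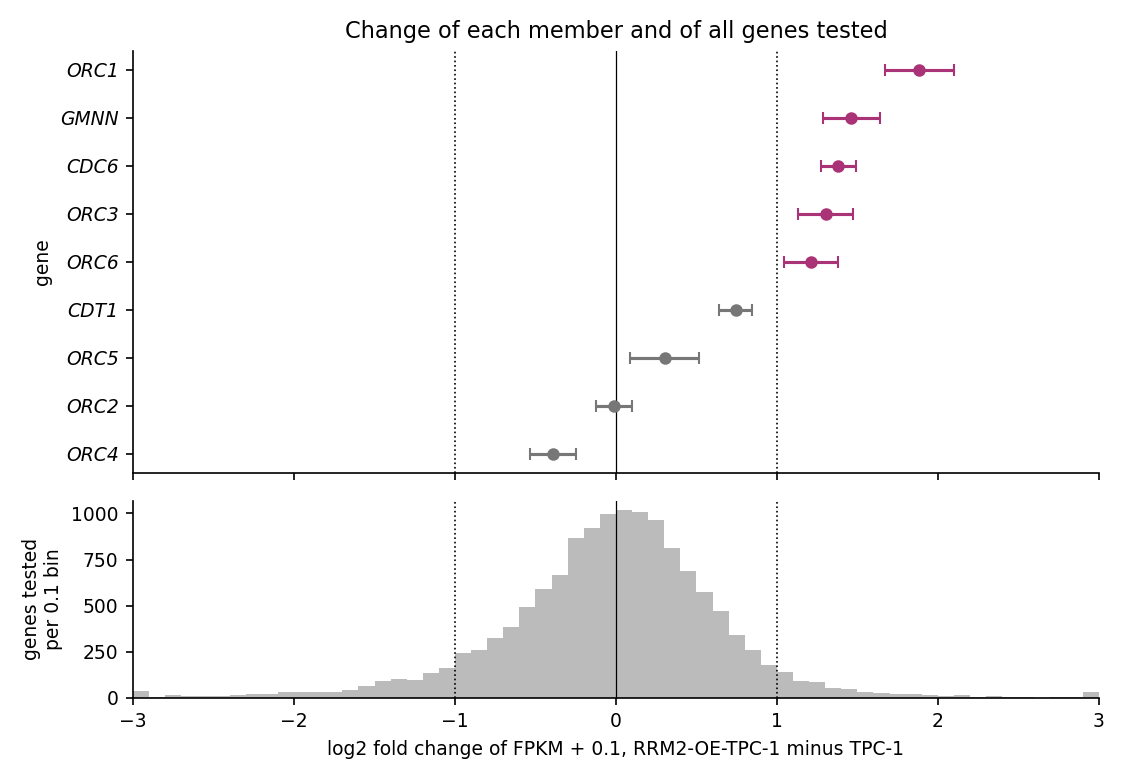
Upper panel, log2 fold change of each gene (horizontal axis, log2 of FPKM + 0.1, RRM2-OE-TPC-1 minus TPC-1) with its 95% interval, called genes in purple and others in grey. Lower panel, all 13621 genes tested, with values beyond the axis placed in the outermost bars. Dotted lines mark the fold threshold of 1 in each direction, which the intervals of ORC1, GMNN, CDC6, ORC3 and ORC6 clear.

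Within ORC, the make-up of the RNA pool differed between the groups. The 6 subunits summed to 25.4 ± 0.949 FPKM in TPC-1 and to 44.4 ± 1.22 FPKM in RRM2-OE-TPC-1 (mean ± SD, n = 3 per group). ORC1 made up 10.1% ± 0.322 of the sum in TPC-1 against 22.0% ± 2.19 in RRM2-OE-TPC-1. ORC3 went from 17.0% to 24.3% and ORC6 from 17.3% to 23.2%. The share of ORC2 was 27.0% in TPC-1 against 15.3% in RRM2-OE-TPC-1, although its level differed by less than the spread between replicates. ORC4 held 18.6% in TPC-1 against 8.05% in RRM2-OE-TPC-1, and ORC5 held 9.93% and 7.05%. The ranges of the groups did not overlap for any of the 6 shares, which are tied to one another because they sum to the whole. The shares rest on FPKM over all exonic bases, and per principal transcript ORC6 (11.6) and not ORC2 (9.27) was the highest subunit in TPC-1.

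**Figure D3:**
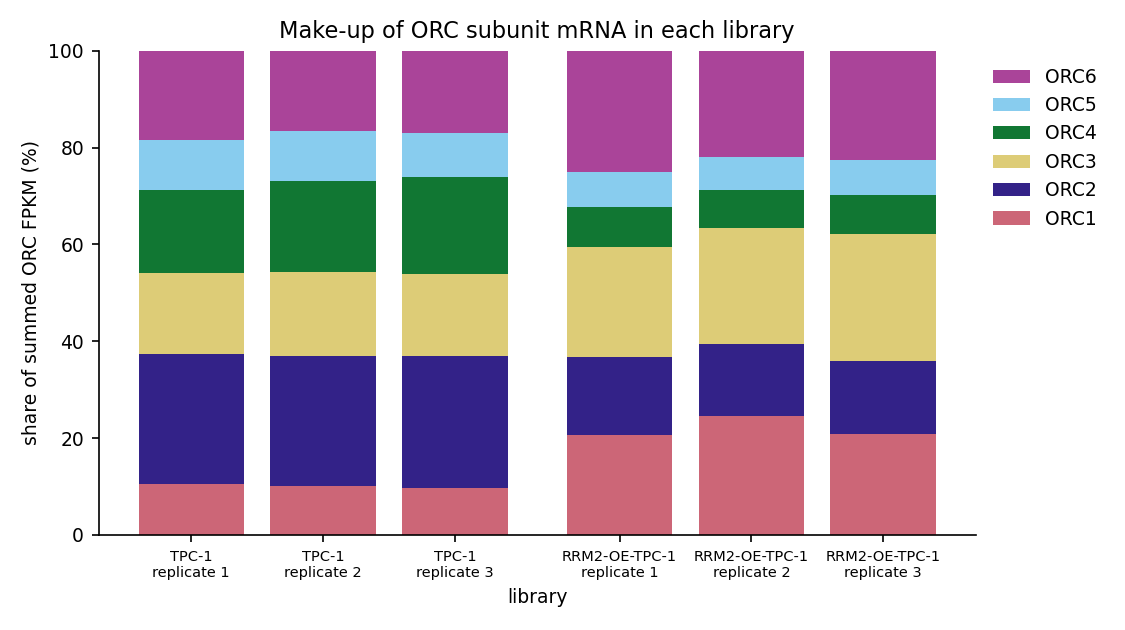
Share of the summed FPKM of the 6 ORC subunits (vertical axis, percent) in each library, one bar per library with a colour per subunit. ORC1, ORC3 and ORC6 take more of the bar in the RRM2-OE-TPC-1 libraries, and ORC2 and ORC4 take less.

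Ratios within a library do not depend on its scaling, apart from the small constant of 0.1 FPKM. Of these ratios 6, chosen with earlier results of these data known, were compared. The test was a two-sided exact permutation test, for which 3 against 3 libraries allow no p under 0.1. The log2 ratio of CDT1 to its inhibitor GMNN was 0.06, 0.27 and 0.05 in TPC-1 and -0.68, -0.52 and -0.58 in RRM2-OE-TPC-1. The ratio was lower in each RRM2-OE-TPC-1 library than in each TPC-1 library. Which of the pair is the more abundant in TPC-1 depends on the gene length used: per principal transcript, CDT1 was at 6.83 to 7.22 and GMNN at 10.8 to 13.3 there, with CDT1 below GMNN in both groups. The mean difference was -0.72 (exact p = 0.1, 0.12 adjusted over the 6 ratios). The log2 ratio of CDC6 to GMNN was -0.28 ± 0.137 in TPC-1 against -0.36 ± 0.0584 in RRM2-OE-TPC-1 (mean ± SD, n = 3 per group). The libraries of the groups overlapped in that ratio (difference -0.08, exact p = 0.6, adjusted p = 0.6), and leaving out single libraries moved the difference between -0.13 and -0.0028.

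Against the geometric mean of ORC2, ORC3, ORC4 and ORC5, the log2 ratio of ORC1 was -0.73 in TPC-1 against 0.85 in RRM2-OE-TPC-1. That of ORC6 was 0.02 in TPC-1 against 0.93 in RRM2-OE-TPC-1. ORC3 against the geometric mean of ORC2, ORC4 and ORC5 had a log2 ratio of 0.01, -0.02 and -0.02 in the TPC-1 libraries and of 1.19, 1.36 and 1.43 in the RRM2-OE-TPC-1 libraries. ORC3 was thus higher relative to these subunits in each RRM2-OE-TPC-1 library than in any TPC-1 library. ORC1 to ORC6 went from -0.75 to -0.08. Each of these 4 differences (1.58, 0.91, 1.34 and 0.68) had an exact p of 0.1, adjusted p of 0.12, with no overlap between the groups. Since the ratios were chosen with the members' changes known, they restate those changes and are not separate support.

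**Figure D4:**
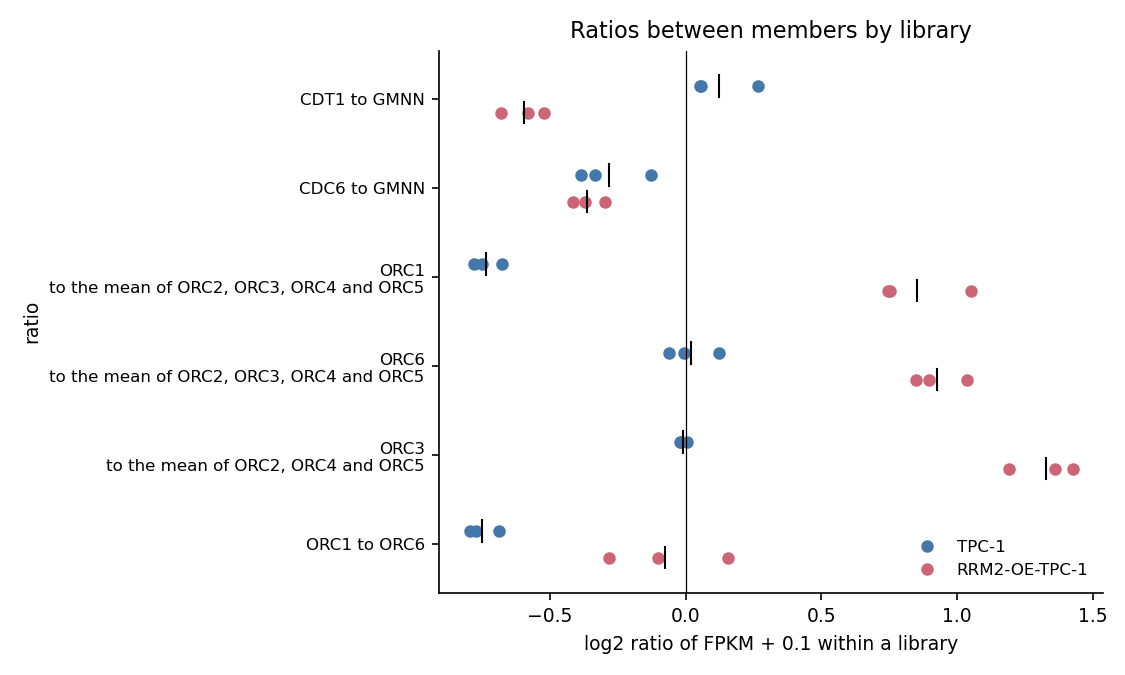
Log2 ratio of FPKM + 0.1 between members (horizontal axis) in each TPC-1 library (blue) and each RRM2-OE-TPC-1 library (red), with the mean of each group as a vertical tick. The groups overlap for CDC6 to GMNN and are apart for the other ratios, with the widest gap for ORC1 to the mean of the 4 core subunits.

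Ordered by FPKM, the TPC-1 means ran from ORC2 (6.85) through CDT1 (6.81), GMNN (6.26), CDC6 (5.11), ORC4 (4.72), ORC6 (4.40), ORC3 (4.31) and ORC1 (2.57) to ORC5 (2.52), a 2.72-fold range. Neighbours in that order overlapped in 5 of 8 pairs, namely ORC2 and CDT1, CDT1 and GMNN, ORC4 and ORC6, ORC6 and ORC3, and ORC1 and ORC5. The RRM2-OE-TPC-1 means ran from GMNN (17.4) through CDC6 (13.5), CDT1 (11.5), ORC3 (10.8), ORC6 (10.3), ORC1 (9.78), ORC2 (6.80) and ORC4 (3.57) to ORC5 (3.13), a 5.55-fold range. Here 3 of 8 neighbouring pairs overlapped, which were CDT1 and ORC3, ORC3 and ORC6, and ORC6 and ORC1. The order also rests on the length used for each gene. FPKM here divides by all exonic bases of a gene, for example 4309 for ORC6 and 2476 for GMNN, whose principal transcripts are 1628 and 1262 bases long. Per principal transcript, GMNN and ORC6 were the highest members in both groups, at 12.3 and 11.6 in TPC-1 and at 34.1 and 27.2 in RRM2-OE-TPC-1 on that scale, ORC1 was the lowest in TPC-1 (2.57) and ORC4 the lowest in RRM2-OE-TPC-1 (4.74).

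The steps around licensing were described with lists of genes, and 0 of their tested genes were called lower, where 6.97% of all tested genes were. The counts below stand beside 4.48% of all tested genes called higher. By adjusted p alone 34.9% of all tested genes were higher and 32.7% lower. MCM2-7, the helicase that the members load, had all 6 genes higher by adjusted p and 1 called, MCM4, which went from 23.4 ± 0.679 to 65.4 ± 0.672 FPKM (log2 fold change 1.48, limma adjusted p = 3.19e-08). The other MCM genes had log2 fold changes of 0.63 (MCM5) to 0.77 (MCM7), below those of ORC1, ORC3, ORC6, CDC6 and GMNN. The median over the list was 0.74.

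Origin firing factors turn the loaded helicase into a moving one. All 14 were higher by adjusted p and 8 were called, with a median log2 fold change of 1.07. GINS1 and GINS2, subunits of the GINS complex that joins the helicase, had log2 fold changes of 1.96 (limma adjusted p = 6.56e-08) and 1.71 (2.00e-07), and MCM10, which acts at helicase activation, had 1.67 (1.03e-06). DBF4, the activating subunit of the CDC7 kinase, had the smallest at 0.32 (0.00251).

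Genes that act on licensing factors or on their turnover formed a list of 17. Of these 13 were higher by adjusted p, 0 were lower and 4 were called, with a median log2 fold change of 0.33. PCNA, the sliding clamp on which CDT1 is marked for degradation, rose from 34.1 ± 1.01 to 121.7 ± 1.95 FPKM (log2 fold change 1.83, limma adjusted p = 1.14e-08). SKP2, the substrate receptor of a ubiquitin ligase for CDT1 and ORC1, had a log2 fold change of 1.49 (9.25e-08), CCNA2 (cyclin A2) of 1.21 (9.32e-07) and CCNF (cyclin F) of 1.08 (4.98e-07). DTL, the receptor of the ligase that acts on CDT1 at PCNA, had 0.84 (1.78e-06) and was not called. FBXO31, an F-box protein, had -0.04 (0.593). CDK1 is in this list and in the G2/M list.

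Of 5 chromatin partners of ORC, 0 were called, 3 were higher and 1 lower by adjusted p. LRWD1, which binds ORC, had a log2 fold change of 0.68 (limma adjusted p = 1.84e-04), KAT7, a histone acetyltransferase that works with CDT1, had -0.31 (0.00462) and KMT5A, which methylates histone H4, had -0.06 (0.366). MCIDAS, a relative of geminin, had 0.05 (0.693), and GMNC, the other relative, did not pass the filter on low values. Of 8 E2F genes 0 were called, 6 were higher and 1 was lower by adjusted p, where 34.9% and 32.7% of all tested genes were. E2F1 had a log2 fold change of 0.96 (7.66e-06), E2F3 of 0.15 (0.0260) and E2F5 of -0.77 (1.23e-04).

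Genes that mark the phases of the cycle, none of them a member, moved alongside. Of 19 S phase genes tested 10 were called and 18 were higher by adjusted p, with a median log2 fold change of 1.00. CLSPN, a checkpoint mediator at forks, had 2.12 (limma adjusted p = 6.79e-08), DSCC1, part of a clamp loader, had 1.69 (2.89e-06), FEN1, the flap endonuclease, had 1.43 (3.26e-07) and GMPS, an enzyme of guanine nucleotide synthesis, had 0.07 (0.197). Of 20 G2/M genes 5 were called and 19 were higher by adjusted p, with a median of 0.81. CDC20, an activator of the anaphase-promoting complex, had 1.35 (1.95e-07), KIF20B, a mitotic kinesin, had 1.13 (4.76e-06), HMMR, a spindle-associated protein, had 1.09 (1.84e-05) and NUSAP1, a microtubule-binding protein, had 0.01 (0.945). The member median of 1.21 stood beside these medians, whether it differs from them was not tested, and the part of cell cycle phase in the members' values was not tested.

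**Figure D5:**
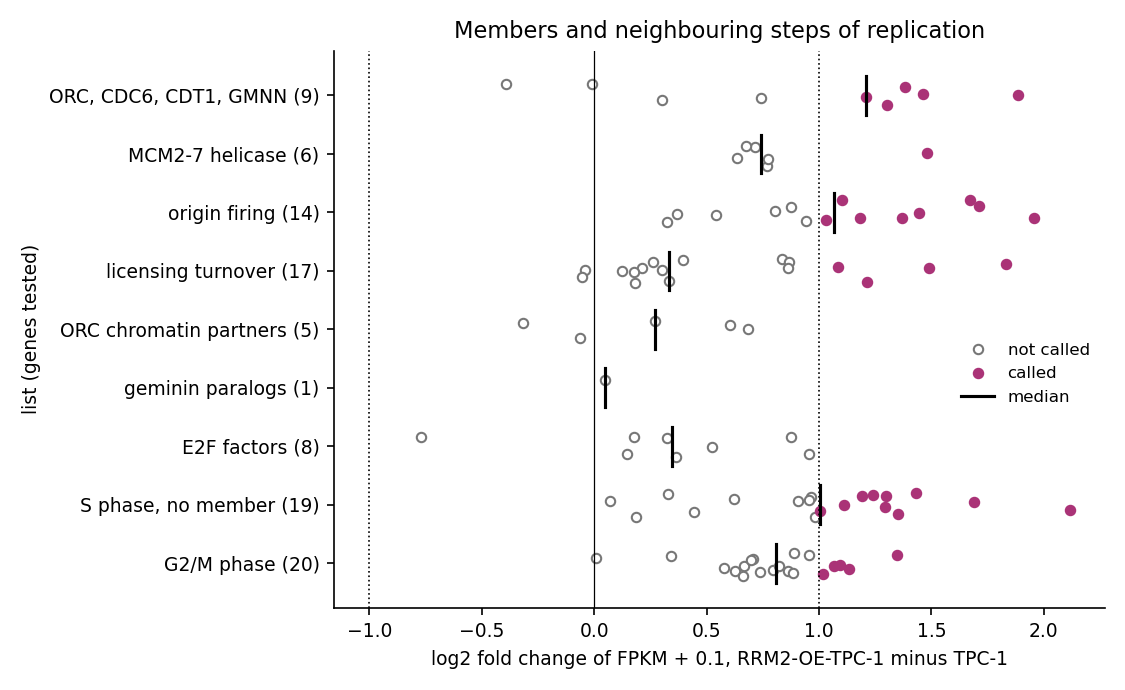
Log2 fold change (horizontal axis, RRM2-OE-TPC-1 minus TPC-1) of each tested gene, with a row per list and the number of genes tested in brackets. Filled points were called, open points were not, black ticks are medians and dotted lines mark a change of 1 in each direction. The members span from -0.39 (ORC4) to 1.89 (ORC1). The MCM2-7 genes span from 0.63 to 1.48, the licensing turnover genes from -0.05 to 1.83 and the S phase genes from 0.07 to 2.12.

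Of the members that rose, 3 start back to back with a gene on the opposite strand. ORC1 and PRPF38A, a splicing factor, start 105 bases apart, across the stretch printed above, and PRPF38A was at 8.25 ± 0.403 FPKM in TPC-1 against 8.55 ± 0.509 FPKM in RRM2-OE-TPC-1 (log2 fold change 0.05, limma adjusted p = 0.488). ORC6 and VPS35, a retromer subunit, start 125 bases apart, and VPS35 was at 15.6 ± 0.381 and 16.1 ± 0.677 FPKM (log2 fold change 0.05, adjusted p = 0.354). ORC3 and RARS2, the mitochondrial arginyl-tRNA synthetase, start 64 bases apart, and RARS2 was at 12.9 ± 0.469 and 14.8 ± 0.813 FPKM (log2 fold change 0.20, adjusted p = 0.0101). The pairs were picked for an ORC gene that was called, and in none of them was the partner called. Of all tested genes 4.48% were called higher and 6.97% lower, so a partner that is not called is the usual outcome.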

How the data were processed

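RNA sequencing covered 3 TPC-1 and 3 RRM2-OE-TPC-1 libraries. The authors used fastp for trimming, HISAT2 2.0.5 for alignment and featureCounts 1.5.0 for counting, and deposited FPKM, that is counts over gene length and depth. The labels' processing notes give GRCh38.p14, and all 58735 gene positions were those of GENCODE 29. The methods describe poly(A) selection, whereas per the labels ribosomal RNA was removed and linear RNA digested with RNase R, and which was done could not be settled.

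Multiplied by gene length, 100% of FPKM values were whole reads within a tolerance of 0.01, which gave 14317091 to 17084067 reads per library. Replicates differed by more than sampling noise, and unevenly so in RRM2-OE-TPC-1. There the chi-square of read counts per degree of freedom was 5.02 for replicates 1 and 2, 5.68 for 1 and 3 and 1.81 for 2 and 3. Between TPC-1 replicates it was 2.92 to 3.08. Genes with at least 0.5 FPKM and 10 reads in at least 3 libraries were tested with limma 3.58.1 (lmFit, eBayes with trend) in R 4.3.3 on log2(FPKM + 0.1), so that fold changes of low genes are understated. The procedure was tested on simulated data. Python 3.11.15 with scipy 1.17.1 gave the exact tests. Promoter sequences are from RefSeq. The limma p-values set the difference between groups against the spread among libraries within them, with that spread shared in part across genes. They do not cover the spread between strains made independently.

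The members, lists and ratios were chosen with earlier results of these data known. Genes named are the members, RRM2 and, per list, up to 3 called genes with the largest change and the gene with the smallest. CCNF, DTL, LRWD1, KAT7, E2F1, E2F5, MCM7, GMNC, CDK1 and the neighbours of members were named after their values were seen. Alternatives were no filter, the FPKM minimum alone, other pseudocounts, scalings and tests, the replicate block and each library left out. The order of levels per principal transcript was added after seeing the data. The result of 1 marker list is not reported here.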

Additional observations from a re-analysis of the deposited data

How the results depend on the processing

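The count of 5 members called was kept, with the same 5 names, without a filter, with the FPKM minimum alone, with pseudocounts of 1 and 0.01, with library totals, median-of-ratios factors and voom on recovered reads, with protein-coding genes only and with each library left out (range 5 to 5). By adjusted p alone it was 8, and with a test of a change above 1 it was 4, where ORC6 (log2 fold change 1.21, adjusted p = 0.184) was lost. ORC2 changed sign without TPC-1 replicate 1, at 0.015 (range over single libraries left out -0.024 to 0.015). Called genes in all, 1560, came to 716 with a pseudocount of 1, 9207 by adjusted p alone and 618 with the test of a change above 1. By adjusted p alone the lists held 6 MCM2-7, 14 origin firing, 13 turnover, 4 chromatin partner, 7 E2F, 18 S phase and 19 G2/M genes. With a pseudocount of 1, 5 origin firing and 3 G2/M genes were called. With the test of a change above 1 these were 4 and 1, and turnover had 2. E2F genes called ranged from 0 to 1 over single libraries left out, with the 1 reached without TPC-1 replicate 1. With a pseudocount of 1 the differences in log2 ratio were 1.33 for ORC1 and 0.80 for ORC6 against the 4 core subunits, and 1.18 for ORC3 against the other 3, smaller by construction of the larger constant. Library totals and voom moved the median of all genes by -0.057 and -0.058, and no member changed direction. Replicate numbers did not pair the samples, since same-numbered libraries had correlations of deviations of -0.0105, -0.00602 and -0.055, and with the replicate number as a block 1566 genes and 5 members were called. ORC5, which passed the adjusted p but not the fold threshold, lost the adjusted p when replicate 3 of TPC-1 (0.0594) or replicate 3 of RRM2-OE-TPC-1 (0.0643) was left out.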

Other observations

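The genes around each member, with starts within 1 Mb, were also read. Around ORC1, 22 neighbours were tested, with a median log2 fold change of -0.14. Of these 8 were higher, where 50.8% of all tested genes were. Around ORC4 all 3 tested neighbours had lower values, from -0.88 (MBD5) to -0.37 (ACVR2A), with a median of -0.52, and ORC4 itself had -0.39. MBD5 and ACVR2A share exon bases with ORC4, and use of strand in counting is not stated, so these values may not be separate. Around ORC3 the median of 5 neighbours was -0.16 while ORC3 itself had 1.30. The medians around GMNN (10 neighbours) and CDT1 (30 neighbours) were 0.26 and 0.20, and those around ORC2, ORC5, ORC6 and CDC6 lay between -0.07 and 0.06. These are values of neighbouring genes and no test was made of them as groups.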
